A study of Rattus norvegicus with 20 samples.

Results

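The p53 target genes Cdkn1a, Gadd45a, Gadd45b, Mdm2, Fas, Ccng1, Btg2 and Bax were followed across 6 dose groups in rat liver. They were chosen by their measured changes at 994.6 mg/kg, where Cdkn1a lay below control and Gadd45a above it, so their values at that dose are given as a description, with no test. The probe sets annotated to each gene alone numbered 11 of the 31042 measured and covered 6 of the 8 genes: 2 for Cdkn1a, 1 for Gadd45a, 1 for Gadd45b, 3 for Mdm2, 3 for Fas and 1 for Ccng1. No probe set was named Btg2 here, and the only one annotated to Bax named a second locus as well.

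Liver RNA of 20 male Harlan Sprague-Dawley rats, 1 array per rat, was compared after daily oral gavage on 4 consecutive days. The 5 control rats received corn oil alone, and 3 rats each received tricresyl phosphate (TCP), an organophosphate ester, in corn oil at 62.3, 124.5, 248.6, 497.3 and 994.6 mg/kg body weight. The livers were taken on day 5, and RNA came from the left lobe. All groups thus shared the vehicle, the gavage and the strain, and the sources used here do not give the rats' age. Each value is a log2 expression level from an Affymetrix array, on which a difference of 1 is a doubling, and levels are compared only within a probe set.

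The transcription factor p53 is activated by DNA damage and other stress and switches on genes that stop the cell cycle, repair DNA or start cell death. Cdkn1a encodes p21, the inhibitor of cyclin-dependent kinases, Gadd45a and Gadd45b encode stress sensors that act on p38 and JNK signalling, and Mdm2 encodes the ubiquitin ligase that destroys p53. Several of these genes also respond to other factors: Gadd45a to ATF4 in the integrated stress response, Gadd45b to NF-kappaB, and Cdkn1a to glucocorticoids and many growth signals.

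The sequence before the start site of 3 members is shown because it differs in its resemblance to the p53 consensus site, a pair of 10-base elements. The search took a full site as a pair with no spacer, so elements set apart were not counted as one. Windows of 300 bases, 250 before to 50 after the start, were searched in RefSeq sequence of the rat assembly GRCr8, and 7 of the 8 members had one, Bax being without. The consensus reads the same on both strands, and elements were counted whether or not they lie in a full site. The 250 bases before the start are printed 5′ to 3′ on the gene's strand. Capitals mark the full site with 1 mismatch in Cdkn1a (chr20:7150682-7150931, plus strand) and Ccng1 (chr10:25684877-25685126, minus strand), and a single exact element in Gadd45a (chr4:97486800-97487049, minus strand).
Cdkn1a: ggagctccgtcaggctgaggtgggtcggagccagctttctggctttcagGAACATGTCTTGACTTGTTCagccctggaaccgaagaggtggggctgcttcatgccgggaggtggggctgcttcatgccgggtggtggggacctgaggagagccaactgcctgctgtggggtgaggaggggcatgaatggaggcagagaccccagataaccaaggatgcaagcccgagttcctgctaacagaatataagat
Ccng1: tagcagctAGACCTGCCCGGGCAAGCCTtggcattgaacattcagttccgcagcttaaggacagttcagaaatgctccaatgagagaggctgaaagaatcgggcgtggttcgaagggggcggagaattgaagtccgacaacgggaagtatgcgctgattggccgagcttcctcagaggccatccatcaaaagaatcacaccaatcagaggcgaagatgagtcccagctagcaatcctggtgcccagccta
Gadd45a: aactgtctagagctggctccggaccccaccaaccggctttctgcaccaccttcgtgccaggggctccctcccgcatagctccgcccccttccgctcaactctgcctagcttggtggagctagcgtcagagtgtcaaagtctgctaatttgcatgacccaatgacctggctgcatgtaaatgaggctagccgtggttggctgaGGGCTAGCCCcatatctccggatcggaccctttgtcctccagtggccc

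The site in Cdkn1a lies at -201 to -182 from the start and that in Ccng1 at -242 to -223. A full site with at most 1 mismatch was held by 24 of 33469 rat windows (0.0717%), and an exact element by 2671 (7.98%). The best match without a spacer in the Gadd45a window had 4 mismatches, and those of Btg2, Mdm2, Fas and Gadd45b had 4, 5, 5 and 6. A match is a resemblance of letters and not a measured binding site, and in human cells the well-known p53 sites of GADD45A, MDM2 and FAS lie in introns, outside windows of this kind.

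Across all 31042 probe sets, limma was fitted with 1 mean per group, and calls were made within each comparison where the p adjusted after Benjamini-Hochberg was under 0.05. Against control, 0 probe sets were called at 62.3 mg/kg (0.0%), 1 at 124.5 mg/kg (0.00322%), 9 at 248.6 mg/kg (0.029%), 97 at 497.3 mg/kg (0.312%) and 807 at 994.6 mg/kg (2.6%). A slope per dose step over 62.3 to 497.3 mg/kg, which uses neither control nor the highest dose, gave 7 calls (0.0226%). Of the 11 member probe sets, 0 were called at each of the 3 lowest doses and by the slope, and 1 was called at 497.3 mg/kg. At an unadjusted p under 0.05 there were 0, 1, 2, 4 and 4 of them at 62.3, 124.5, 248.6 and 497.3 mg/kg and by the slope, where 2.94%, 4.77%, 6.26%, 10.6% and 5.81% of all probe sets had one. At 994.6 mg/kg the same fit called 5, a count from the comparison that chose the genes. The comparisons of the doses with control share the 5 control arrays. Where arrays of a dose are said to lie above or below every control array, this is a description. The share of all probe sets that do so was not counted.

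Other measures also differed between arrays or groups. On the first principal component, replicate 1 of 994.6 mg/kg lay at 37.11 and all other arrays between -14.15 and 9.14, so each member's difference at that dose is also given without it. All 8 hepatocyte markers were measured, with summed linear levels of 171764 to 178716 at 994.6 mg/kg and 179181 to 183994 in control. Such sums weigh the markers with the highest levels most. At 994.6 mg/kg 0 of the 8 were called. Their median log2 difference was -0.05, with a range of -0.215 to 0.68, and 2 of 8 lay above 0. Of 5 measured erythroid markers, 4 were called lower at 994.6 mg/kg, where 1.63% of 14217 genes were. The sums of the 5 markers were 2477 to 7743 there and 13230 to 15279 in control. Without replicate 1 the call of Ahsp ended (-0.49), as it did without replicate 2 and with the GAPDH difference described next in the model, and those of Hbb (-1.54, and -1.001 without it), Hba-a3 (-1.51 and -1.02) and Alas2 (-1.63 and -1.15) held. The log2 difference between the 3' and 5' GAPDH probe sets, a sign of RNA quality, was 0.72 ± 0.11 at 994.6 mg/kg (SD, n = 3) and 1.37 ± 0.18 in control (SD, n = 5), with a single array of 124.5 mg/kg at 2.58. At 62.3, 248.6 and 497.3 mg/kg its means were 0.96, 0.99 and 0.81. All arrays of these doses and of 994.6 mg/kg lay below the lowest control array, at 1.13. The part of these measures in the members' differences was not tested except where a value without the array, or with the GAPDH difference in the model, is given. In whole liver, fewer cells of a type and less RNA per cell cannot be told apart.

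Cdkn1a, the p21 gene that halts the cell cycle, was lowest at the highest dose by its probe set 1388674_at. Its log2 levels were 10.95, 11.33, 10.92, 11.49 and 10.16 in control, 10.82, 12.10 and 10.25 at 62.3 mg/kg, 9.89, 10.78 and 12.05 at 124.5 mg/kg, 9.97, 11.10 and 10.14 at 248.6 mg/kg, 9.76, 10.11 and 9.93 at 497.3 mg/kg, and 9.45, 9.05 and 8.67 at 994.6 mg/kg. The 3 lowest doses overlapped control, and all 6 arrays of 497.3 and 994.6 mg/kg lay below every control array. At the low doses single rats stood high, replicate 2 of 62.3 mg/kg and replicate 3 of 124.5 mg/kg, both above every control array.

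The mean level of 1388674_at was 9.06 ± 0.39 at 994.6 mg/kg (SD, n = 3) and 10.97 ± 0.51 in control (SD, n = 5). The log2 difference was -1.91 ± 0.42 (SE), or 0.265 of the control level, and -2.11 without replicate 1 and -1.84 with the GAPDH difference in the model. At 497.3 mg/kg the mean level was 9.93 ± 0.18 (SD, n = 3) and the log2 difference from control -1.04 ± 0.42 (SE; limma adjusted p = 0.375, unadjusted p = 0.0244), which did not pass the test although the groups did not overlap. Differences at 62.3, 124.5 and 248.6 mg/kg were 0.09, -0.06 and -0.57, each with an SE of 0.42, and their adjusted p lay at 1.0, 0.994 and 0.892. The slope over the 4 lower doses was -0.39 ± 0.15 per step (SE; adjusted p = 0.746).

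The other Cdkn1a probe set, 1387391_at, did not show this. It read 6.25, 6.22, 6.17, 6.80 and 6.52 in control, 6.79, 6.83 and 6.43 at 62.3 mg/kg, 6.31, 5.83 and 7.64 at 124.5 mg/kg, 6.13, 6.80 and 6.90 at 248.6 mg/kg, 6.04, 6.20 and 6.12 at 497.3 mg/kg, and 6.69, 5.88 and 5.82 at 994.6 mg/kg. The doses and control overlapped at every dose, but 2 of 3 arrays lay below every control array at 497.3 mg/kg and likewise at 994.6 mg/kg. Between the 2 probe sets r was 0.618 over the 20 arrays, and 0.602 taking each array's difference from its group mean. The log2 difference from control was -0.27 ± 0.30 at 497.3 mg/kg (SE; adjusted p = 0.826) and -0.26 ± 0.30 at 994.6 mg/kg (SE), where replicate 1 stood above the other 2 arrays and the value without it was -0.54. With the GAPDH difference in the model these values were -0.59 (adjusted p = 0.417) and -0.64. The lower Cdkn1a level at 994.6 mg/kg thus rests on 1 of the gene's 2 probe sets, and in both probe sets replicate 3 of 124.5 mg/kg was above every control array.

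**Figure D1:**
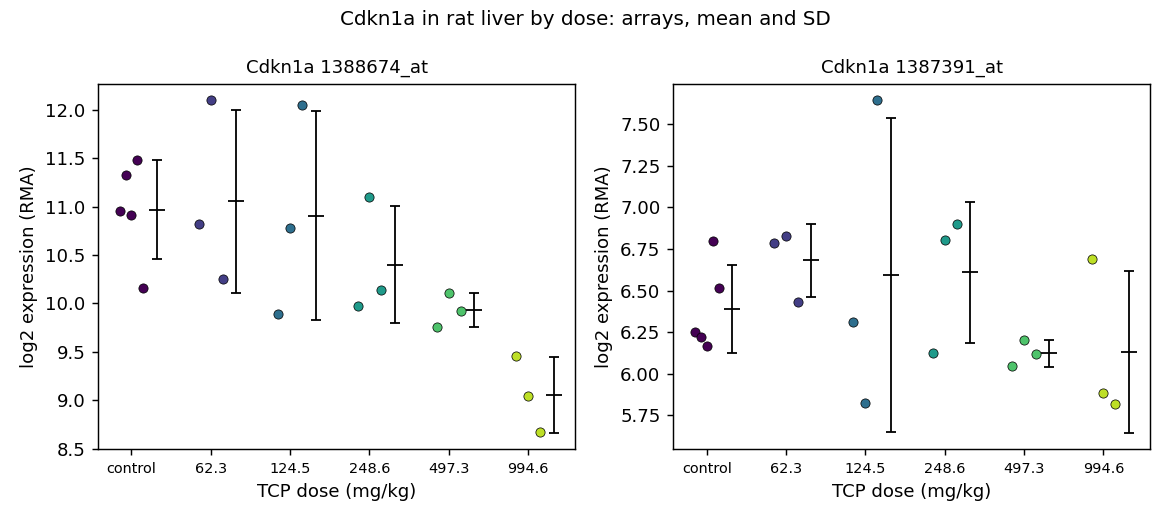
Log2 expression of the 2 Cdkn1a probe sets by TCP dose in mg/kg. Points are arrays, and bars give the mean and SD of a group (5 control arrays, 3 per dose). In 1388674_at all arrays of the highest doses, 497.3 and 994.6 mg/kg, lie below the lowest control array at 10.16, while 1387391_at overlaps control at every dose.

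Gadd45a, which activates stress kinases and slows entry into mitosis, had the opposite direction at the highest dose and overlapped control below it. Its probe set, 1368947_at, had log2 levels of 9.40, 9.52, 9.40, 9.61 and 8.81 in control, 9.17, 9.82 and 9.13 at 62.3 mg/kg, 9.58, 9.39 and 9.87 at 124.5 mg/kg, 9.03, 9.35 and 9.58 at 248.6 mg/kg, 9.29, 10.05 and 9.20 at 497.3 mg/kg, and 11.21, 10.76 and 10.41 at 994.6 mg/kg. The 3 arrays of 994.6 mg/kg lay above all of the other 17, and the 4 lower doses overlapped control. The mean level was 10.80 ± 0.40 at 994.6 mg/kg (SD, n = 3) and 9.35 ± 0.32 in control (SD, n = 5), a log2 difference of 1.45 ± 0.23 (SE, 2.73-fold), and of 1.24 without replicate 1 and 1.43 with the GAPDH difference in the model.

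At 62.3, 124.5, 248.6 and 497.3 mg/kg Gadd45a differed from control by 0.02, 0.27, -0.03 and 0.17 on the log2 scale, each with an SE of 0.23 (limma adjusted p = 1.0, 0.971, 0.995 and 0.87). Its slope over these doses was 0.01 ± 0.08 per step (SE; adjusted p = 0.992). At 497.3 mg/kg, then, Cdkn1a stood below every control array at 1388674_at and overlapped control at 1387391_at, and Gadd45a overlapped control. The difference between the genes was not tested.

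Gadd45b, the sister gene induced in regenerating and inflamed liver, was also highest on average at the highest dose. The levels of its probe set, 1372016_at, were 6.09, 6.13, 6.27, 6.47 and 6.11 in control, 5.995, 7.68 and 6.16 at 62.3 mg/kg, 6.31, 6.50 and 6.93 at 124.5 mg/kg, 6.28, 6.25 and 6.26 at 248.6 mg/kg, 6.15, 6.44 and 6.73 at 497.3 mg/kg, and 7.58, 7.04 and 6.86 at 994.6 mg/kg. All 3 arrays of 994.6 mg/kg lay above the controls, but the highest single array was replicate 2 of 62.3 mg/kg. The log2 difference from control was 0.95 ± 0.27 at 994.6 mg/kg (SE, 1.93-fold) and 0.74 without replicate 1, and at the 4 lower doses it lay between 0.05 and 0.40 (SE 0.27 each; adjusted p 0.847 to 1.0).

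**Figure D2:**
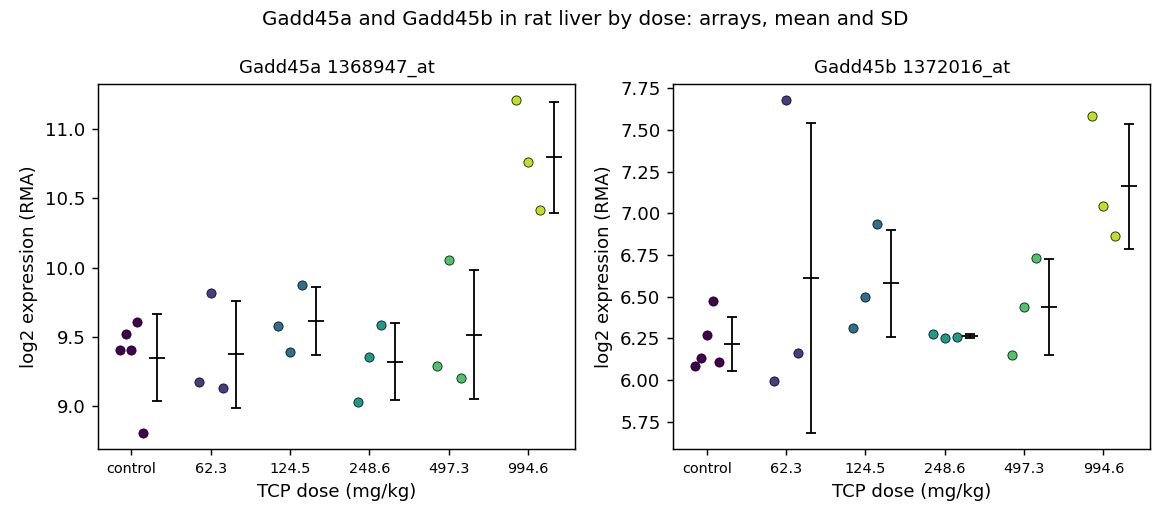
Log2 expression of Gadd45a and Gadd45b by TCP dose in mg/kg, with points for arrays and bars for the mean and SD of a group. The arrays of 994.6 mg/kg stand above all controls in both genes, at 10.41 to 11.21 for Gadd45a, and 1 array of 62.3 mg/kg is the highest for Gadd45b at 7.68.

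Set side by side within groups, Cdkn1a and the Gadd45 genes tended to be high in the same rats. Replicate 2 of 62.3 mg/kg and replicate 3 of 124.5 mg/kg, the highest arrays for Cdkn1a 1388674_at, were the highest of their dose for Gadd45a and Gadd45b too. Taking each array's difference from its group mean, r over the 20 arrays was 0.677 between Cdkn1a and Gadd45a, and 0.715 between Cdkn1a and Gadd45b. Without these 2 arrays r was 0.575 and 0.436 over 18 arrays. These correlations are descriptions: each array contributes both genes from 1 hybridisation, so they share its RNA and its normalization.

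**Figure D3:**
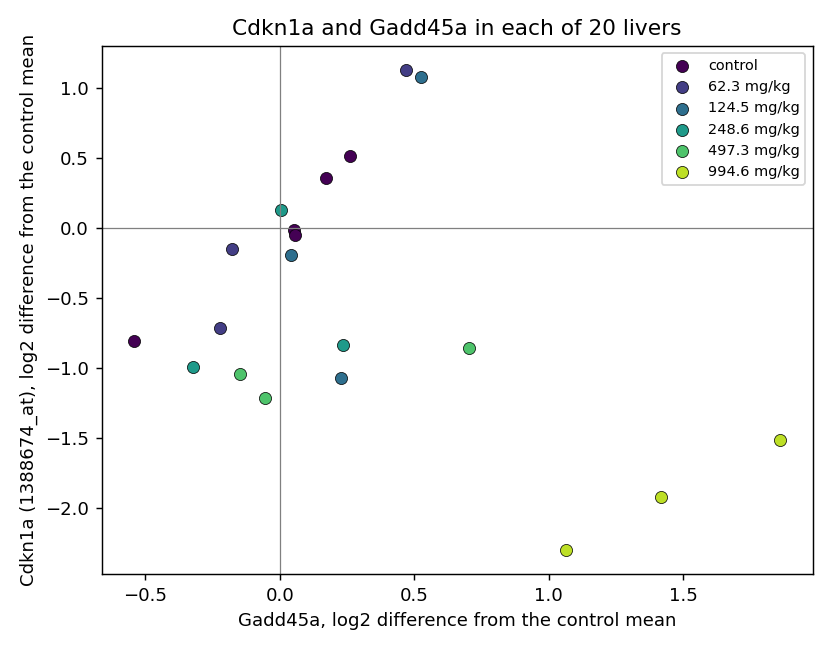
Each point is 1 liver, with the log2 difference of Gadd45a from its control mean across and that of Cdkn1a 1388674_at up, coloured by dose in mg/kg. The 3 livers of 994.6 mg/kg lie farthest to the right and lowest. The nearest to them is 1 liver of 497.3 mg/kg, at 0.70 across and -0.86 up.

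Mdm2, the ubiquitin ligase that is both a target and the main inhibitor of p53, had 3 probe sets that did not move alike. At 1384427_at the levels were 8.48, 8.45 and 8.41 at 994.6 mg/kg, against 8.15, 7.87, 8.14, 7.77 and 7.88 in control, a log2 difference of 0.49 ± 0.10 (SE), and of 0.47 without replicate 1. At 1383288_at they were 8.46, 8.83 and 8.91 at 994.6 mg/kg, against 8.32, 8.38, 8.40, 8.30 and 8.45 in control, a difference of 0.37 ± 0.10 (SE), and of 0.50 without replicate 1, the array nearest to control. In both, the groups did not overlap, but at 1383288_at the lowest array of the dose, 8.46, was close to the highest control array, 8.45. At 1383485_at the difference was 0.10 ± 0.11 (SE), and 0.11 without replicate 1, and the groups overlapped.

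Below the highest dose 0 Mdm2 probe sets passed the test, and 2 had an unadjusted p under 0.05 at 248.6 mg/kg and 1 by the slope. At 248.6 mg/kg, 1383485_at stood at 6.79 to 6.90, above the controls at 6.43 to 6.74, and differed by 0.25 ± 0.11 on the log2 scale (SE; limma adjusted p = 0.782), and 1384427_at differed by 0.25 ± 0.10 (SE; adjusted p = 0.744). At 497.3 mg/kg the 3 differences lay between 0.03 and 0.18 (adjusted p 0.58 to 0.952).

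Fas, the death receptor that starts apoptosis in hepatocytes, was the only member with a call below the highest dose. At 1384842_s_at the levels were 6.77, 6.94, 7.13, 6.76 and 6.91 in control, 6.96, 6.80 and 7.15 at 62.3 mg/kg, 7.17, 7.42 and 6.75 at 124.5 mg/kg, 7.19, 7.04 and 7.10 at 248.6 mg/kg, 7.54, 7.42 and 7.88 at 497.3 mg/kg, and 7.85, 7.42 and 7.49 at 994.6 mg/kg. All arrays of 497.3 and 994.6 mg/kg lay above every control array, and the 3 lower doses overlapped control. The probe set rose at 497.3 mg/kg by 0.71 ± 0.14 on the log2 scale (SE, 1.64-fold; limma adjusted p = 0.0348). It differed by 0.69 ± 0.14 at 994.6 mg/kg (SE, 1.61-fold), and by 0.55 without replicate 1.

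The call at 497.3 mg/kg was near its threshold. It ended without any 1 of the 3 arrays of that dose (0.58 to 0.81, adjusted p 0.0558 to 0.139) and without control replicate 1, 2, 4 or 5 (0.68 to 0.72, adjusted p 0.0626 to 0.0851). With the GAPDH difference in the model the value was 0.83 (adjusted p = 0.0229).

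At the second Fas probe set, 1397221_s_at, the levels were 4.94, 5.02, 4.99, 4.84 and 4.91 in control, 4.69, 4.22 and 5.11 at 62.3 mg/kg, 4.94, 5.20 and 4.87 at 124.5 mg/kg, 5.15, 5.06 and 5.00 at 248.6 mg/kg, 5.49, 5.59 and 5.53 at 497.3 mg/kg, and 5.22, 5.54 and 5.50 at 994.6 mg/kg. Again all 6 arrays of the highest doses lay above every control. The log2 difference from control was 0.60 ± 0.14 at 497.3 mg/kg (SE; adjusted p = 0.0611) and 0.48 ± 0.14 at 994.6 mg/kg (SE), and 0.58 without replicate 1. Among the 4 lower doses it had a slope of 0.27 ± 0.05 per step (SE, 1.20-fold; adjusted p = 0.0699), which did not pass the test.

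The third Fas probe set, 1369900_at, overlapped control at 994.6 mg/kg. It read 4.73, 4.63, 4.71, 4.69 and 4.66 in control, 4.75, 4.59 and 4.85 at 62.3 mg/kg, 4.73, 4.80 and 4.79 at 124.5 mg/kg, 4.73, 4.84 and 4.70 at 248.6 mg/kg, 4.75, 4.95 and 4.90 at 497.3 mg/kg, and 4.63, 4.84 and 4.80 at 994.6 mg/kg. Only the arrays of 497.3 mg/kg stood clear of the controls, by 0.18 ± 0.08 on the log2 scale (SE; adjusted p = 0.379). At 994.6 mg/kg the difference was 0.07 ± 0.08 (SE), and 0.13 without replicate 1.

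Some markers of other cells also differed from control. Of 4 measured cholangiocyte markers 1 was called, Epcam, a surface protein of bile duct cells, named after its values were seen. Of all probe sets, 0.312% were called at 497.3 mg/kg and 2.6% at 994.6 mg/kg. Epcam rose by 0.86 ± 0.14 on the log2 scale at 497.3 mg/kg (SE; limma adjusted p = 0.00693) and by 0.69 ± 0.14 at 994.6 mg/kg (SE; adjusted p = 0.00957). With 1 array left out, the first call ended without replicate 2 of its dose and the second without replicate 1 of its dose (0.65, adjusted p = 0.0692). Of the 4 cholangiocyte markers, 3 had an unadjusted p under 0.05 by limma at 497.3 mg/kg, 1 at 994.6 mg/kg and 3 by the slope. Of all probe sets, 10.6%, 14.9% and 5.81% had one. The median log2 difference of the 4 markers at 497.3 mg/kg was 0.78, and the highest was 1.32. The summed linear levels of the 4 markers were 692 to 896 in control, 1136 to 1793 at 497.3 mg/kg and 1118 to 1257 at 994.6 mg/kg. Those of 5 lymphocyte markers were 333 to 410 in control, 415 to 530 at 497.3 mg/kg and 381 to 495 at 994.6 mg/kg, with 0 called by limma and 1 at an unadjusted p under 0.05, at 497.3 mg/kg. Of 6 measured stellate cell markers 1 was called, Rgs5, named after its values were seen. It rose by 0.82 on the log2 scale at 994.6 mg/kg. Its call ended in 4 of 28 other settings, also without replicate 1 of that dose (0.61, limma adjusted p = 0.15). The 6 stellate markers had a median log2 difference of 0.05 at 994.6 mg/kg and of -0.11 at 497.3 mg/kg. At 994.6 mg/kg the lowest was -0.48, and 3 of 6 lay above 0. Their summed linear levels were 817 to 1116 at 994.6 mg/kg and 824 to 1052 in control. No marker was listed at 0, and the part of these cells in the Fas levels was not tested.

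**Figure D4:**
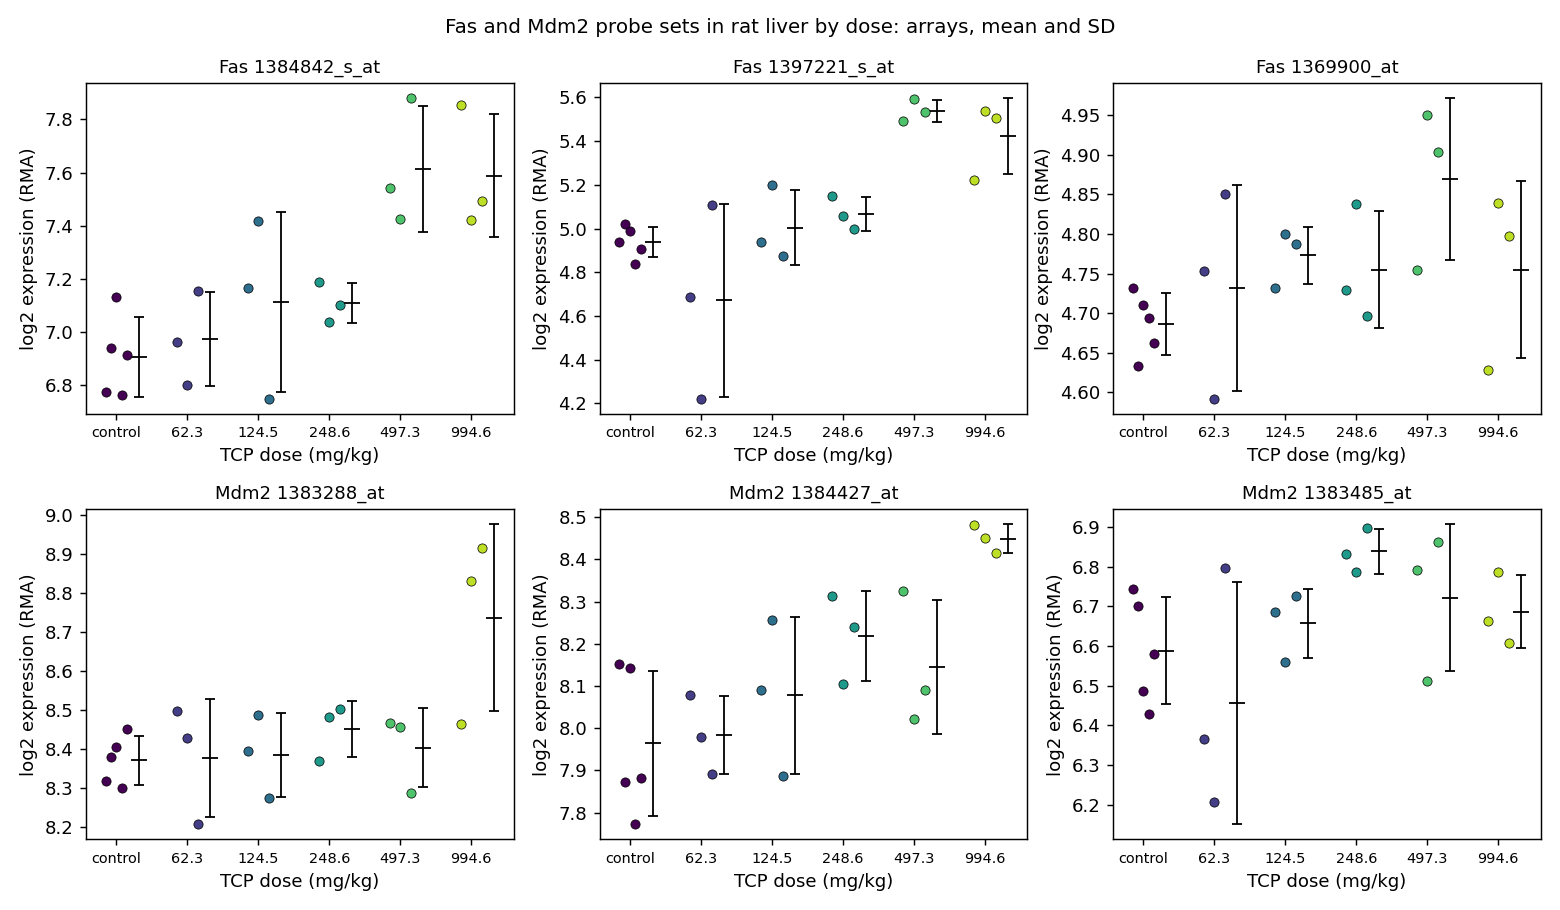
Log2 expression of the 3 Fas probe sets (upper panels) and the 3 Mdm2 probe sets (lower panels) by TCP dose in mg/kg, with points for arrays and bars for the mean and SD of a group. Fas 1384842_s_at and 1397221_s_at are above all controls at 497.3 and 994.6 mg/kg, and the vertical scales differ between panels.

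Ccng1, cyclin G1, a p53 target that helps to regulate Mdm2, ranged from 8.46 to 9.51 over all arrays and was called at no dose. The levels of its probe set, 1367764_at, were 8.88, 9.02, 8.86, 9.07 and 8.46 in control, 8.92, 9.16 and 8.82 at 62.3 mg/kg, 9.19, 9.31 and 9.18 at 124.5 mg/kg, 8.92, 9.37 and 8.82 at 248.6 mg/kg, 8.94, 9.13 and 9.16 at 497.3 mg/kg, and 9.51, 8.84 and 9.03 at 994.6 mg/kg. Its arrays lay above all controls at 124.5 mg/kg alone, by 0.37 ± 0.15 on the log2 scale (SE; limma adjusted p = 0.971). The difference at 994.6 mg/kg was 0.27 ± 0.15 (SE), and 0.08 without replicate 1, so that array carried most of it.

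For Bax, which opens the mitochondrial membrane in apoptosis, the probe set shared with the other locus ranged from 8.56 to 8.95 over the 20 arrays. Its difference from control at 994.6 mg/kg was 0.02 ± 0.09 (SE), -0.02 without replicate 1, and the groups overlapped at every dose. It cannot be given to Bax alone.

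Of 46 listed regulators and targets of p53 besides the members, 37 were measured, each by the probe set with the highest mean, and 0 were called by limma in any of the 6 comparisons. At 994.6 mg/kg, where 1.94% of 14217 genes were called higher and 1.63% lower, 7 of the 37 had an unadjusted p under 0.05, as 14.9% of all probe sets did. With array weights 6 of the 37 were called, and 13.6% of all probe sets. Both counts of the 37 lie near the share over all probe sets. Their median log2 difference was -0.03, against -0.01 over all genes, and 14 of 37 lay above 0. The kinase Atr, the checkpoint kinases Chek1 and Chek2 and the p53 partner Mdm4, named for their roles after their values were seen, differed by -0.03, -0.22, -0.01 and -0.13, and at 497.3 mg/kg Mdm4 differed by -0.57 ± 0.18 (SE; adjusted p = 0.216).

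By role, the lists held 9 measured regulators of p53, 9 targets of cell cycle arrest, 10 of cell death and 9 of repair and metabolism. Their median log2 differences at 994.6 mg/kg were -0.02, -0.05, -0.03 and -0.05. The highest values, named after they were seen, were those of Gadd45g, the third Gadd45 gene, at 1.02 ± 0.40 (SE; adjusted p = 0.218), and of Dram1, which takes part in autophagy, at 0.52 ± 0.15 (SE; adjusted p = 0.0721). At the lower doses Gadd45g had the other sign, with -0.48, -0.53, -1.18 and -0.77 at 62.3, 124.5, 248.6 and 497.3 mg/kg (SE 0.40 each; adjusted p 0.53 to 1.0). Classic targets, likewise named afterwards, such as the death gene Bbc3 (0.18 ± 0.21, adjusted p = 0.771), the repair gene Ddb2 (-0.15 ± 0.13, adjusted p = 0.655) and the antioxidant gene Sesn2 (-0.20 ± 0.19, adjusted p = 0.686) did not pass the test.

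**Figure D5:**
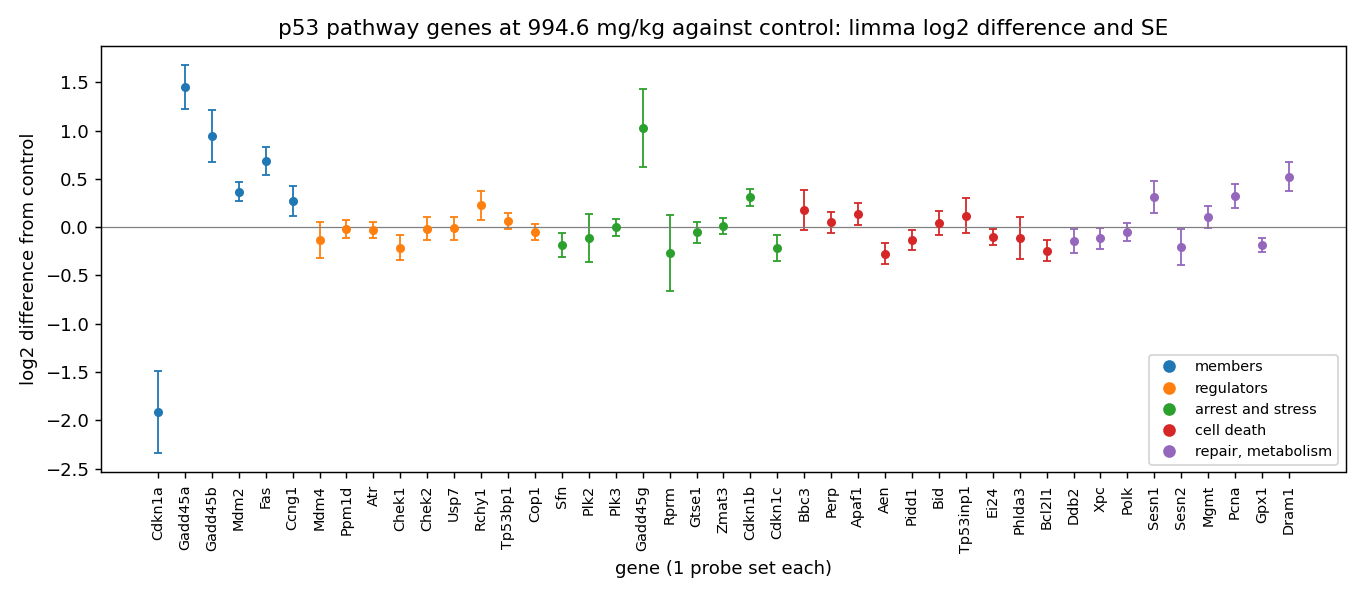
Log2 difference between 994.6 mg/kg and control (vertical axis) for the 6 measured members and 37 other p53 pathway genes, 1 probe set each, with limma's SE as bars and colours for roles. Among the 37 only Gadd45g, at 1.02, and Dram1, at 0.52, exceed 0.5, and Cdkn1a is the lowest of all at -1.91.

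Cell cycle genes, on which p21 acts, were measured for 15 of 16 listed, and 0 were called in any of the 6 comparisons. At an unadjusted p under 0.05 there was 1 at 994.6 mg/kg and 3 at 497.3 mg/kg, where 14.9% and 10.6% of all probe sets had one. By the slope there were 2, where 5.81% of all probe sets had one. Their median log2 difference at 994.6 mg/kg was -0.15, with a range of -0.33 to 0.25, and 4 of 15 lay above 0. At 497.3 mg/kg the median was 0.09, with a range of -0.11 to 0.61, and 10 of 15 lay above 0. The p21-related inhibitor gene Cdkn1b, named after its value was seen, differed by 0.31 ± 0.09 at 994.6 mg/kg (SE; limma adjusted p = 0.0823).

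Of 12 regulators of other stress responses, 4 were called higher at 994.6 mg/kg. Of all 14217 genes, 1.94% were called higher and 1.63% lower at that dose. They were the AP-1 subunit Jun (1.88 ± 0.23, adjusted p = 0.000151), Atf3 (1.76 ± 0.24, adjusted p = 0.000588), Atf4, the factor of the integrated stress response (0.82 ± 0.17, adjusted p = 0.0136), and Ddit3 (0.67 ± 0.16, adjusted p = 0.0298). Without replicate 1 of the dose the calls of Jun (2.01) and Atf3 (1.64) held, and those of Atf4 (0.65, adjusted p = 0.131) and Ddit3 (0.63, adjusted p = 0.157) ended. Over 28 other settings, the call of Ddit3 ended in 7. That of Atf4 ended in 2, also with the GAPDH difference in the model. Nfkb1 was called at 497.3 mg/kg (0.61 ± 0.13, adjusted p = 0.038), a call that ended in 10 of 28 other settings. Of 9 measured clock genes, Nr1d1 (2.32 ± 0.35), Nr1d2 (1.40 ± 0.14) and Dbp (1.38 ± 0.25) rose and Cry1 (-1.02 ± 0.19) fell at 994.6 mg/kg, and these calls held without replicate 1. Jun, Atf3, Atf4, Nr1d1, Nr1d2 and Dbp were named because they were called, and Ddit3, Nfkb1 and Cry1 were added after their values were seen. The lists of stress regulators and clock genes were chosen with earlier results of these data known. The adjusted p values and the 4 of 12 called thus describe these genes and are not an independent test of them.

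The genes whose levels ran most like those of Cdkn1a were sought over the 20 arrays among 13979 genes, by Pearson's r with 1388674_at. They were Tsc22d3 (r = 0.941), the glucocorticoid-induced leucine zipper, Ptpdc1 (0.939), Nr1i2 (0.924), which encodes the xenobiotic receptor PXR, Shld2 (0.923) and Card10 (0.914). Their log2 differences at 994.6 mg/kg were -1.07, -0.68, -0.51, -0.46 and -0.74. For Gadd45a they were Dnaja3 (r = 0.876), a mitochondrial co-chaperone, Il7 (0.856), Foxq1 (0.845), Nnmt (0.828) and Timm10b (0.828), with differences of 0.43, 1.01, 0.65, 1.01 and 0.52. Likeness over these arrays includes the dose groups themselves, so each r reflects the position of the 994.6 mg/kg arrays as well as variation among rats.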

How the data were processed

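The deposited log2 expression values are the authors' RMA values, per the submitters' processing notes, which give no version. RMA equalises the arrays' distributions, so changes are measured against the mass of genes; array medians were 6.31 to 6.41. Of 31099 probe sets, 57 controls were left out. Annotation gave 1 gene symbol to 20826 of 31042 probe sets, several to 436 and none here to 9780.

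limma 3.58.1 in R 4.3.3 (lmFit, contrasts.fit, eBayes) was fitted to all 31042 probe sets and 20 arrays with 1 mean per group and no filter on low values. Errors are limma's SE unless SD is given. The fit was tested on simulated data. The members and gene lists were chosen with earlier results of these data known. Every member probe set is named, up to 3 called genes per list, and the 5 genes most like Cdkn1a and Gadd45a; exceptions are marked. Replicate numbers were not used to pair rats, since not all same-numbered arrays deviated together. The settings tried were quantile normalization, eBayes with trend and robust options, array weights, fitting only the compared groups, a replicate block, the GAPDH difference as a covariate, a filter on low values, 1 probe set per gene and leaving out each array. The number of arrays limits the precision.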

Additional observations from a re-analysis of the deposited data

Results flagged for a closer look

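Among 12 groups of control arrays, 1 for each probe set described, 1 held an array far from the others. Gadd45a in control replicate 5 lay at 8.81, below the other 4 controls at 9.40 to 9.61, with a gap of 0.743 of the group's range against a critical value of 0.71. Chance alone flags about 1 in 20 groups.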

How the results depend on the processing

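No value of a member called in one setting reversed in another. The block for replicate number used replicates 1 to 3 of each group, so it also left out control replicates 4 and 5. In its counts, the block and the loss of these controls cannot be told apart. Of all probe sets, the block for replicate number called 1 at 62.3 mg/kg, 35 at 497.3 mg/kg, 415 at 994.6 mg/kg and 3 by the slope; of the 11 member probe sets it called 0 at 497.3 mg/kg and 2 at 994.6 mg/kg. It also ended the calls of Fas 1384842_s_at at 497.3 mg/kg (0.67, adjusted p = 0.221) and of Epcam at 497.3 and 994.6 mg/kg. Deviations of same-numbered arrays correlated between -0.424 and 0.159 for dose with control. For dose with dose they correlated between -0.233 and 0.429, with 12 of 30 of the dose pairs over 0.1. Among replicate 3 arrays, dose pairs lay between 0.015 and 0.319, and dose with control between -0.424 and -0.166. No label says what a number marks, and the pairing by number was not used. Quantile normalization called 0 at 124.5 mg/kg, 150 at 497.3 mg/kg and 11 by the slope, array weights 0, 18, 312 and 4224 at the 4 doses from 124.5 mg/kg, and fitting only the compared groups 275 at 497.3 mg/kg and 4 by the slope. The GAPDH covariate left 466 calls at 994.6 mg/kg. Among the members, quantile normalization, array weights and only the compared groups each called 2 at 497.3 mg/kg. At 994.6 mg/kg the trend and robust eBayes options and the GAPDH covariate each called 3. By the slope, quantile normalization, those eBayes options and array weights each called 1, Fas 1397221_s_at. Leaving out each array in turn gave 0 to 1, 0 to 2, 5 to 16, 38 to 183 and 216 to 1068 calls at the 5 doses and 0 to 12 by the slope, and for members 0 to 2 at 497.3 mg/kg, 2 to 6 at 994.6 mg/kg and 0 to 1 by the slope. Among the other p53 pathway genes at 994.6 mg/kg, array weights called 6 and single left-out arrays 0 to 1. The causes were not tested, and 3 arrays per dose limit all of these values.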
